A study of Saccharomyces cerevisiae with 16 samples.

Results

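The genes described are the 10 budding yeast genes for catalases, superoxide dismutases and peroxidases of the peroxiredoxin and cytochrome c peroxidase kinds, of 6002 protein-coding genes counted. The rule names them by function and uses no measured value: CTT1 and CTA1, SOD1 and SOD2, TSA1, TSA2, AHP1, PRX1, DOT5 and CCP1. The set was nevertheless chosen with earlier results of these data known. For each gene, the tags that mark RNA 3′ ends were summed over its open reading frame (ORF) and up to 400 nt past it, ending before the next gene on the same strand. All 10 had enough tags to enter the test, which covered 5527 genes. On the R64 genome the ORFs of the catalases are YGR088W (CTT1, chrVII:654634-656322, plus strand) and YDR256C (CTA1, chrIV:968133-969680, minus), and those of the dismutases YJR104C (SOD1, chrX:622550-623014, minus) and YHR008C (SOD2, chrVIII:122889-123590, minus). Those of the peroxiredoxins are YML028W (TSA1, chrXIII:220138-220728, plus), YDR453C (TSA2, chrIV:1365072-1365662, minus), YLR109W (AHP1, chrXII:368781-369311, plus), YBL064C (PRX1, chrII:100371-101156, minus) and YIL010W (DOT5, chrIX:334882-335529, plus). CCP1 is YKR066C (chrXI:566113-567198, minus).

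Superoxide dismutases turn superoxide into hydrogen peroxide and oxygen, and catalases and peroxidases then remove the peroxide. Catalases split hydrogen peroxide directly, whereas peroxiredoxins reduce peroxides with a reactive cysteine that is mostly restored by thioredoxin. In budding yeast the cytosol holds the most abundant of these enzymes, and mitochondria, peroxisomes and the nucleus have members of their own. Several of the genes are classical targets of the stress factors Msn2 and Msn4, which bind AGGGG, or of the peroxide-responsive factor Yap1, which binds TTACTAA and TGACTAA.

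Each group used strain BY4741, which is of mating type a and lacks working HIS3, LEU2, URA3 and MET15 genes. Single cells were enclosed in alginate particles, grew into microcolonies in YPD, a rich glucose medium, and were collected. Poly(A) RNA was then sequenced by 3′T-fill, in which each read reports the 3′ end of a transcript. Particles fixed in ethanol were of 3 kinds: unsorted (total, n = 3), sorted for big colonies (big, n = 3) and sorted for small colonies (small, n = 2, replicates 2 and 4). Unsorted particles without ethanol (nofix, n = 2) and free cells of batch cultures at an absorbance at 600 nm of 0.5 (YPD05, n = 2) or 2 (YPD2, n = 2) served as controls. The labels do not say whether groups shared a culture or day. A p-value here sets a difference against the spread between libraries, estimated over all 6 groups. Whether that is a spread between independent cultures is not known.

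The 14 libraries held 1506960 to 7871184 tags, and 88.8% to 96.3% of them fell in a gene's window. Small replicates 1 and 3, excluded by the submitters for low quality, held 11821 and 839550 tags and entered no test. The 2 remaining small libraries stood apart from each other, with a correlation of log2 levels across genes of 0.53, against 0.87 to 0.94 within the other groups. Small replicate 4 was barcoded in a separate read, and a further label of it names unfixed cells while its title and description name fixed small colonies. It was grouped by its title. Markers of mating type a summed to 410.9 to 2501 CPM in every library, CPM being counts scaled to 1000000 gene tags a library, and those of mating type alpha to 0 to 8.69 CPM in 13 libraries and to 28.1 CPM in small replicate 4. Small replicate 4 had 3 tags of MET17, the gene of the met15 mutation, and 519 of LEU2, against 0 of MET17 and 0 to 7 of LEU2 in each of the other 13, so that the library with conflicting labels also had the most tags of these off-strain markers. URA3 had 1 to 84 tags a library and HIS3 327 to 2458. Whether these lie in the ORF or past it was not examined. ACT1, the actin gene, passed the test in none of the 7 comparisons. Its level ranged from 1305 CPM in small replicate 4 to 12410 CPM in nofix replicate 1, so this does not show a stable level.

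The promoter stretches of 4 members are shown because CTT1, TSA2 and PRX1 had the 3 largest fold changes in unfixed particles, and because AHP1 carries as many AGGGG matches as CTT1 without such a change. They are read 5′ to 3′ on the gene's own strand from the RefSeq R64 genome: chrVII:654134-654433 for CTT1 on the plus strand, chrIV:1365863-1366162 for TSA2 on the minus strand, chrII:101207-101506 for PRX1 on the minus strand and chrXII:368281-368580 for AHP1 on the plus strand. Capitals mark a match of AGGGG, of the Yap1 motif TTACTAA, or of its variant TGACTAA, on either strand. On the other strand AGGGG reads CCCCT.
CTT1: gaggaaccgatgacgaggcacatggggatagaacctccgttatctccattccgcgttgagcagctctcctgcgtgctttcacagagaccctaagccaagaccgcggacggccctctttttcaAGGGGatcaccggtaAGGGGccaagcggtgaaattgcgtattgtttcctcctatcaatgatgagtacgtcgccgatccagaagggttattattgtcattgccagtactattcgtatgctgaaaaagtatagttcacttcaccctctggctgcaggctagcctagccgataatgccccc
TSA2: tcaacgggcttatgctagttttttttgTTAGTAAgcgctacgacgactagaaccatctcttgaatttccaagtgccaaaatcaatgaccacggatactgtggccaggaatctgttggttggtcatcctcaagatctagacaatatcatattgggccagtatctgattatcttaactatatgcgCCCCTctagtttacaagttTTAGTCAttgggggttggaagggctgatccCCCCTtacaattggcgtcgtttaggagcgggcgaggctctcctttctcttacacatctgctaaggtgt
PRX1: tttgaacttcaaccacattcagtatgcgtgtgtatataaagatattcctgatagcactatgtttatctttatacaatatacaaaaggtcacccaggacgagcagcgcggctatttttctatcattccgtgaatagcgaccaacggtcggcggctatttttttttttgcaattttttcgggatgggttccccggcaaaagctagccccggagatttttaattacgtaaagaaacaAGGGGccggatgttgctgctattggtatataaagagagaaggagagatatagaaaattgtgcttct
AHP1: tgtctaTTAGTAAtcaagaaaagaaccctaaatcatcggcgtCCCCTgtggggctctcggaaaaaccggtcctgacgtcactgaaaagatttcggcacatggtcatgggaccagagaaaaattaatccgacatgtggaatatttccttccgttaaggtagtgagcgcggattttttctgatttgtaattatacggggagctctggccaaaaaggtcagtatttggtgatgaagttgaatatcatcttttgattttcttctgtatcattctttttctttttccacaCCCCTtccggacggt
In the 500 nt before the ORF, CTT1 has AGGGG matches that begin 378, 363 and 133 nt before the start codon. TSA2 has matches at 317 and 268 nt, a TTACTAA match at 473 nt and a TGACTAA match at 298 nt. PRX1 has 1 AGGGG match, at 116 nt. AHP1 has 3 AGGGG matches, at 458, 215 and 165 nt, and a TTACTAA match at 494 nt. TSA1 has 2 AGGGG matches, SOD1, SOD2 and CCP1 have 1 each, and CTA1 and DOT5 have none. Of 6000 promoters of this length, 34.1% hold at least 1 AGGGG, 8.13% at least 2 and 1.83% at least 3, while 11.8% hold TTACTAA and 5.97% TGACTAA. SOD1, SOD2 and CTA1 also hold TTACTAA. The motifs do not overlap in these stretches, and a match shows the letters and no binding.

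The 10 genes covered a wide range of levels. Each transcript gives 1 tag whatever its length, so levels of different genes can be set side by side in CPM, here with library sizes scaled by the trimmed mean of M values (TMM). AHP1, TSA1 and SOD1, which encode cytosolic enzymes, made up 78.1% and 82.2% of the 10 genes' tags in the unfixed particles and 91.3% to 99.2% in the other 12 libraries. AHP1, a peroxiredoxin that favours alkyl hydroperoxides, had group means of 4778 CPM in unfixed particles to 7228 CPM in dilute batch culture. TSA1, the major cytosolic peroxiredoxin, ranged from 1667 CPM in small colonies to 4522 CPM in denser batch culture. SOD1, the copper and zinc superoxide dismutase, ranged from 888.3 CPM in fixed unsorted to 2739 CPM in unfixed particles. Over the 5 groups other than small colonies, the ratio of the highest to the lowest group mean was 1.51 for AHP1, 2.22 for TSA1 and 3.08 for SOD1, and 81.6 for CTT1, 36.6 for TSA2 and 30.3 for PRX1. With the small colonies, whose libraries had 1 and 144 tags of TSA2, it was 76.2 for TSA2.

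**Figure D1:**
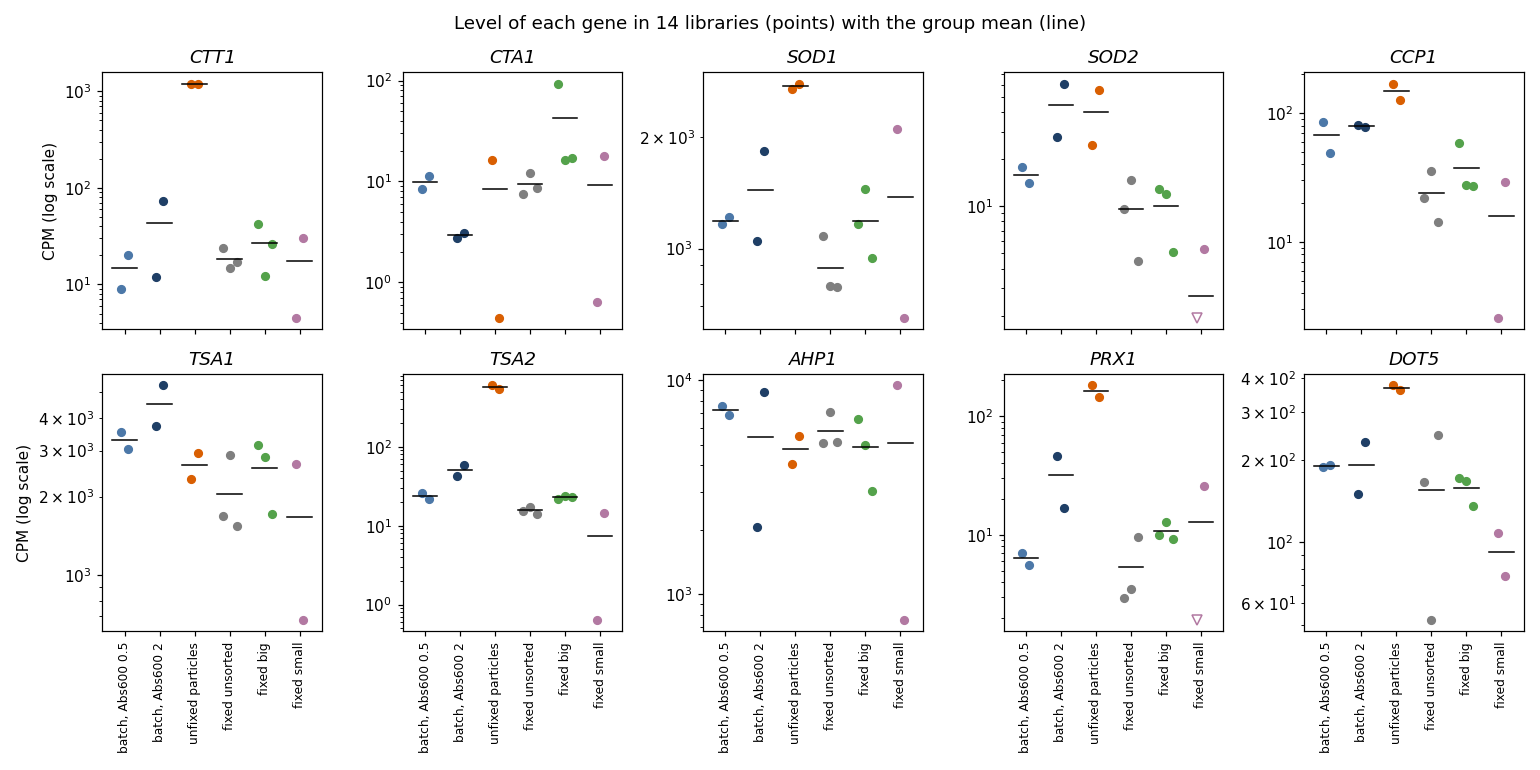
Level of each of the 10 genes in each of the 14 libraries, in CPM on a log axis, with 1 point per library, grouped by condition, and open downward triangles for 0 tags drawn at the level of 3 tags. The unfixed particles lie above every other library for CTT1, at 1188 and 1203 CPM, and for TSA2 and PRX1.

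Unfixed particles were first set against batch cultures, neither of which met ethanol. They differ in growth, as enclosed colonies or as free cells, and in any handling that goes with it, and these cannot be told apart. Fixed unsorted particles, also grown as enclosed colonies, had 14.8 to 23.8 CPM of CTT1 and 14.2 to 17.4 CPM of TSA2. CTT1 and TSA2 rose in unfixed particles over dilute batch culture by edgeR's quasi-likelihood test with Benjamini-Hochberg adjustment over 5527 genes at 0.05. These were 2 of 10 members, none fell, and 1.94% of all 5527 genes passed this test, and 0.76% of all genes passed upward. The members' median log2 fold change was 1.17, against -0.01 over all genes. In bulk RNA, more cells with a transcript and more of it per cell cannot be told apart.

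CTT1 encodes the cytosolic catalase T. Its level was 1188 and 1203 CPM in unfixed particles and 8.93 and 20.4 CPM in dilute batch culture, resting on 2616 and 2692 against 19 and 29 tags. The groups did not overlap, and both unfixed libraries were far above the rest of the series, whose highest value was 74.0 CPM in YPD2 replicate 2. The log2 fold change was 6.36 ± 1.06 (SE) with an adjusted p of 0.00930.

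TSA2 encodes the second cytosolic peroxiredoxin, a near copy of TSA1 known as the minor and stress-inducible one of the pair. Its level was 600.3 and 539.2 CPM in unfixed particles and 26.3 and 21.8 CPM in dilute batch culture. Every other library had 58.7 CPM or less, so that the unfixed pair again stood clear. The log2 fold change was 4.56 ± 0.82 (SE) with an adjusted p of 0.0110. Without YPD05 replicate 1, YPD05 replicate 2 or nofix replicate 1, neither gene was called: the adjusted p was then 0.102, 0.0884 and 0.0820 for CTT1 and 0.110, 0.171 and 0.0894 for TSA2.

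PRX1 encodes the mitochondrial peroxiredoxin. It had 181.6 and 144.3 CPM in unfixed particles and 7.05 and 5.62 CPM in dilute batch culture. These groups did not overlap either, but the log2 fold change of 4.67 ± 1.31 (SE) did not pass, with an adjusted p of 0.0807. The spread shared by all groups includes the disparate small libraries, and without them PRX1 passed at an adjusted p of 0.000744. SOD1 did so as well, at 0.0485.

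The remaining members did not pass. SOD1 had 2692 and 2785 CPM in unfixed particles against 1165 and 1213 CPM, a log2 fold change of 1.20 ± 0.57 (SE, adjusted p = 0.329). DOT5, a nuclear peroxiredoxin, had 375.1 and 360.5 against 189.3 and 191.9 CPM, and CCP1, the cytochrome c peroxidase of the mitochondrial intermembrane space, 169.4 and 126.4 against 85.97 and 49.2 CPM. For all 3, both unfixed libraries were above both batch libraries. TSA1 had 2331 and 2933 against 3533 and 3052 CPM and AHP1 4067 and 5489 against 7577 and 6879 CPM, so that both dilute batch libraries were higher for these abundant peroxiredoxins, again without passing. In all, the groups did not overlap for 9 of 10 members, and the same held for 60.5% of all genes.

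The denser batch culture gave 1 call. CTT1 rose in unfixed particles over YPD2, whose libraries had 12.1 and 74.0 CPM, by a log2 fold change of 4.79 ± 0.98 (SE) with an adjusted p of 0.0384. This was 1 of 10 members where 0.742% of all genes passed, and 0.253% of all genes passed upward. The groups did not overlap for 7 of 10 members and for 54.4% of all genes. TSA2, with 43.1 and 58.7 CPM in YPD2, had a log2 fold change of 3.48 ± 0.78 (SE) at an adjusted p of 0.0504, just outside the threshold, and passed at 0.0474 with RLE scaling factors, at 0.0417 without a filter on low counts and at 5.42e-05 with DESeq2. PRX1, with 46.6 and 16.9 CPM in YPD2, had 2.36 ± 1.16 (SE, adjusted p = 0.414). The call of CTT1 was lost without YPD2 replicate 1 (adjusted p = 0.398), nofix replicate 1 (0.241) or nofix replicate 2 (0.104). Both tests share the nofix libraries and are not independent.

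The share of tags inside gene windows, a mark of the libraries themselves, was 89.4% and 91.2% in the unfixed particles, 94.4% to 94.7% in fixed unsorted particles and 95.1% to 96.3% in the batch cultures. Its part in the differences was not tested.

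**Figure D2:**
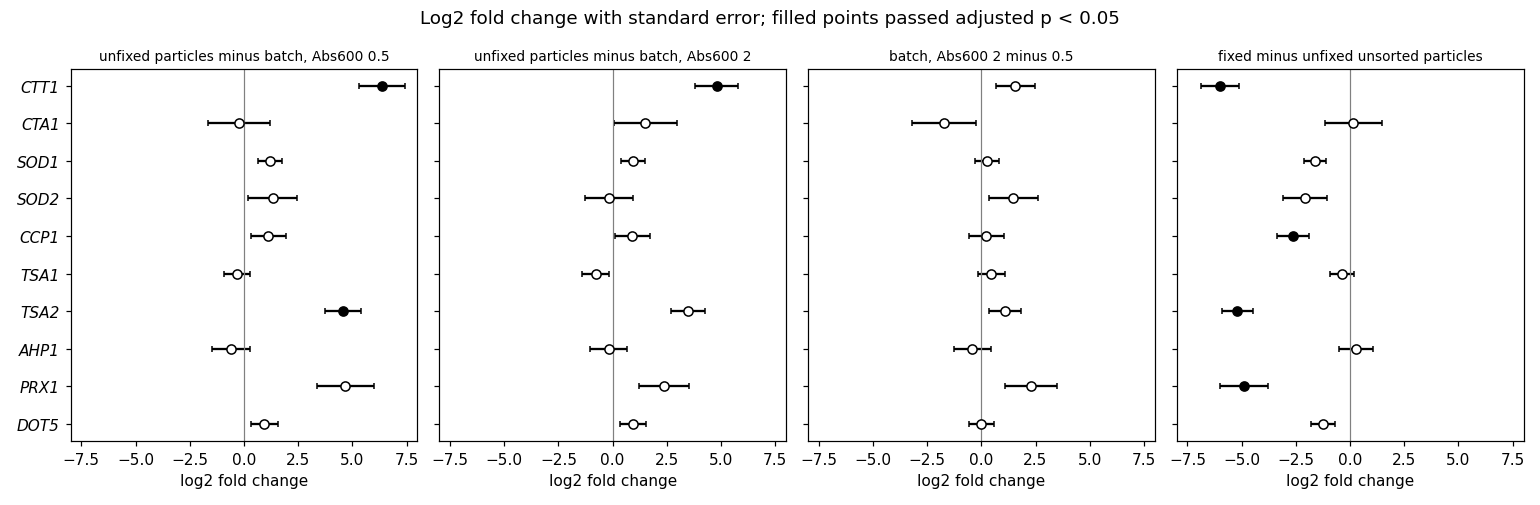
Log2 fold change of each gene with its standard error in 4 comparisons, with filled points for an adjusted p below 0.05. CTT1 and TSA2 are filled on the side of unfixed particles against dilute batch culture, and CTT1, CCP1, TSA2 and PRX1 on the lower side in fixed against unfixed particles.

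No member differed between the 2 batch densities by edgeR at an adjusted p of 0.05, where 0% of all genes passed. None had an unadjusted p below 0.05, and DESeq2 called none. PRX1 was higher in both YPD2 libraries, with a log2 fold change of 2.31 ± 1.20 (SE), and TSA2 with 1.08 ± 0.73 (SE). CTT1 gave 1.57 ± 0.89 (SE), but its YPD2 libraries, at 12.1 and 74.0 CPM, spanned the value of 20.4 CPM in YPD05 replicate 2. SOD2, the manganese superoxide dismutase of mitochondria, had 27.9 and 61.0 CPM at the higher and 17.9 and 14.1 CPM at the lower density. CTA1, the peroxisomal and mitochondrial catalase A, had 2.76 and 3.11 CPM at the higher and 8.46 and 11.2 CPM at the lower density, on 8 to 18 tags a library. Counting its tags after the ORF alone gave 0 CPM in both YPD2 libraries and 0 and 9.14 CPM in YPD05, and the groups then overlapped. The densities did not overlap for 5 of 10 members and for 45.6% of all genes.

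The ethanol step, by the labels the 1 difference between both kinds of unsorted particle, was examined next. Of the 10 members, 4 fell in the fixed particles and none rose, where 5.84% of all genes passed and 2.46% passed downward. The median log2 fold change of the members was -1.85, against 0.02 over all genes. CTT1 and TSA2 had the largest differences, PRX1 and CCP1 followed, and the estimates for the abundant AHP1 and TSA1 were small.

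CTT1 had 23.8, 14.8 and 16.96 CPM in fixed and 1188 and 1203 CPM in unfixed particles, a log2 fold change of -6.00 ± 0.87 (SE, adjusted p = 0.00159). TSA2 had 15.2, 17.4 and 14.2 CPM against 600.3 and 539.2 CPM, or -5.20 ± 0.71 (SE, adjusted p = 0.00118). Every fixed library was more than an order of magnitude below every unfixed one for both genes. PRX1 had 2.95, 3.48 and 9.69 CPM on 4 to 28 tags, against 181.6 and 144.3 CPM, with a log2 fold change of -4.90 ± 1.11 (SE, adjusted p = 0.0164). CCP1 had 21.9, 35.6 and 14.2 CPM against 169.4 and 126.4 CPM, with -2.65 ± 0.74 (SE, adjusted p = 0.0481). These groups did not overlap either.

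The calls of CTT1 and TSA2 held without any 1 library of either group, and the call of CCP1 was lost without each of the 5 libraries, at adjusted p of 0.0898 to 0.264, and with the 200 nt window (0.0531). That of PRX1 was lost without total replicate 1 (adjusted p = 0.0781), total replicate 2 (0.0867), nofix replicate 1 (0.133) or nofix replicate 2 (0.0667).

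SOD1 had 1083, 794.4 and 787.9 CPM in fixed particles against 2692 and 2785 CPM, and DOT5 166.9, 52.1 and 246.1 CPM against 375.1 and 360.5 CPM. Neither group pair overlapped, and neither gene passed, with log2 fold changes of -1.62 ± 0.50 (SE, adjusted p = 0.0723) and -1.24 ± 0.54 (SE, adjusted p = 0.216). SOD1 passed without the small colonies (adjusted p = 0.00354), with the 2 groups alone (0.0148), with tags after the ORF alone (0.0465) and with DESeq2 (0.00870). TSA1 and AHP1 gave -0.37 ± 0.56 and 0.27 ± 0.79 (SE), with overlapping groups. In all, 7 of 10 members did not overlap, against 47.4% of all genes.

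Against dilute batch culture, the fixed unsorted particles showed no called member, with 0% of all genes passing by edgeR at an adjusted p of 0.05. No member had an unadjusted p below 0.05 and DESeq2 called none. CTT1, at 14.8 to 23.8 CPM, overlapped the batch values of 8.93 and 20.4 CPM, and its log2 fold change was 0.37 ± 0.82 (SE). TSA2 lay at 14.2 to 17.4 CPM against 21.8 and 26.3 CPM, a log2 fold change of -0.63 ± 0.67 (SE). The lowest estimate was that of CCP1, at -1.52 ± 0.74 (SE), with each fixed library below both batch libraries. The groups did not overlap for 4 of 10 members and for 27.3% of all genes. Enclosure and ethanol differ together in this comparison and cannot be told apart, and with standard errors of this size a p that missed the threshold does not show equal levels.

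TSA1 and TSA2 could be compared within a library because they are near copies. Their ORFs are both 591 nt long and share 464 bases (78.5%), with no identical run over 14 nt in the ORFs and over 8 nt in the 150 nt that follow, where the tags lie. TSA2 made up 20.5% (95% Wilson interval 19.5 to 21.5) and 15.5% (14.7 to 16.4) of the pair's tags in the unfixed particles. It made up 0.0243% to 2.07% in the other 12 libraries, with the highest share in small replicate 4 and the lowest, 1 tag of 4117, in small replicate 2. The intervals cover counting error only. The sum of both genes therefore hides the difference in TSA2, while TSA1 itself passed in no comparison.

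**Figure D3:**
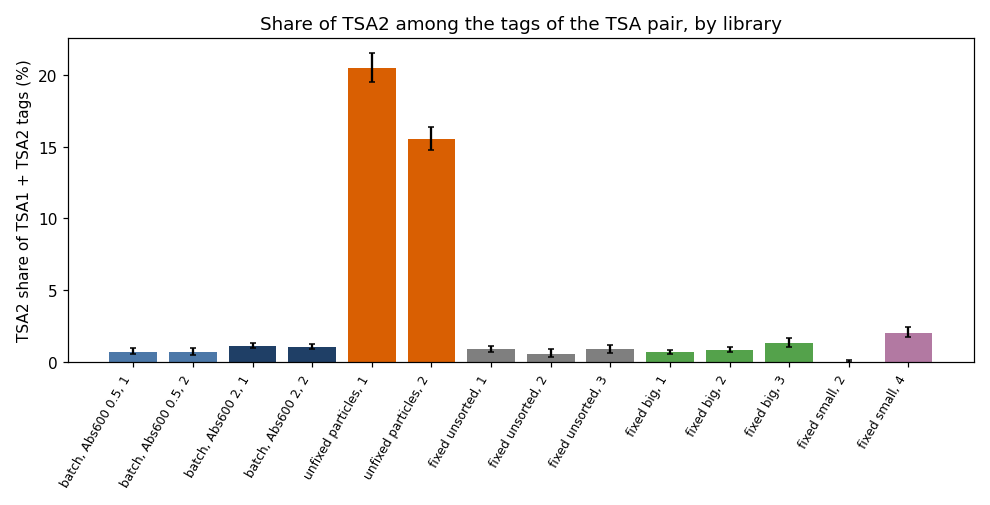
Share of TSA2 among the tags of TSA1 and TSA2 in each of 14 libraries, in percent, with bars from 0 and 95% Wilson intervals. The bars of the unfixed particles reach 20.5% and 15.5%, and no other bar exceeds 2.07%.

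The sorted colonies showed no called member. Big colonies against unsorted fixed particles gave 0 of 10 by edgeR, where 0% of all genes passed, with no unadjusted p below 0.05 and none called by DESeq2. CTA1 had 93.3, 16.3 and 17.1 CPM in big colonies and 7.48, 12.2 and 8.66 CPM in unsorted ones, and the groups did not overlap. Its log2 fold change was 2.17 ± 1.18 (SE, adjusted p = 1), with big replicate 1 far above the other two. TSA2 had 21.8, 23.9 and 23.2 CPM in big colonies, above 14.2 to 17.4 CPM in the unsorted ones, with a log2 fold change of 0.57 ± 0.60 (SE). Groups that did not overlap were seen for these 2 of 10 members and for 7.49% of all genes.

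Small colonies against big colonies also gave 0 of 10 members by edgeR, where 1.27% of all genes passed. DESeq2 called none, and 1 member, TSA2, had an unadjusted p below 0.05. The small libraries differed from each other more than from the big ones. Small replicate 2 had 9465 CPM of AHP1, 2657 CPM of TSA1 and 2105 CPM of SOD1, and replicate 4 had 759.9, 677.2 and 650.5 CPM. DOT5, at 108.4 and 75.3 CPM, was also higher in replicate 2. The counted levels of the other 6 genes were lower there. Replicate 2 had 4.52 CPM of CTT1, 0.645 CPM of CTA1, 0.645 CPM of TSA2 and 2.58 CPM of CCP1, resting on 7, 1, 1 and 4 tags. Replicate 4 had 30.3, 18.0, 14.3 and 29.3 CPM. All tags of small replicate 2 fell at 28602 positions. Total replicate 2, although it held fewer tags, covered 84020. Whether small replicate 2 had lost low-level transcripts was not tested, so these values do not show lower levels in the cells. PRX1 and SOD2 had 0 tags in replicate 2, and 25.7 and 5.36 CPM in replicate 4. With 3 tags as the floor of that library, the counted level of PRX1 was at least 5.52-fold below the mean of the big colonies. This bound covers counting error only and not a loss of low-level transcripts. For SOD2 the 0 depends on the counting rule, as described below. With its downstream neighbour YHR007C-A left out of the annotation, that library had 29.7 CPM of SOD2, against a mean of 99.9 CPM in big colonies.

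TSA2 and DOT5 were lower in both small libraries than in each big one. TSA2 had 0.645 and 14.3 CPM against 21.8 to 23.9 CPM, a log2 fold change of -1.48 ± 0.69 (SE, adjusted p = 0.243), and DOT5 108.4 and 75.3 CPM against 135.4 to 171.6 CPM, or -0.79 ± 0.56 (SE, adjusted p = 0.443). These were 2 of 10 members whose groups did not overlap, against 26.4% of all genes. The estimates turned on a single library. Without small replicate 4, which leaves 1 small library, the log2 fold change was -5.06 for TSA2, -3.84 for CCP1 and -5.93 for CTA1. These rest on 1, 4 and 1 tags in small replicate 2, and the CTA1 tag lay in the first 100 nt of the ORF. For PRX1 the log2 fold change was -7.84 and for SOD2 -7.74, both fitted against 0 tags. Without small replicate 2 it was -2.69 for AHP1 and -1.93 for TSA1.

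Where the tags ended differed for some members, which bears on what a level counts. TSA1 tags clustered 104 nt after the ORF, with 89.2% to 97.8% within 10 nt of that point in each library, and SOD1 tags 71 nt after it, with 78.7% to 96.2%. AHP1 tags clustered 72 nt after the ORF, with 92.9% to 96.5% there except in YPD2 replicate 1 (68.8%) and small replicate 4 (70.2%). In YPD2 replicate 1, 20.5% of AHP1 tags lay 35 nt after the ORF, against 1.03% to 2.52% in the other 13 libraries, and 9 of the 12 genome bases that follow that point are A. A run of A in a transcript can prime in place of the tail, which was not tested. That library also had the lowest AHP1 level outside small replicate 4, 2049 CPM against 8768 CPM in YPD2 replicate 2.

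CTT1 tags ended mainly 86 nt after the ORF, with 0% to 11.8% inside the ORF in 13 libraries and 46.6% inside it in small replicate 4. The level of 30.3 CPM in that library thus rests in large part on ends inside the ORF. PRX1 tags lay mainly 52 and 65 nt after the ORF, and the unfixed particles had 24.5% and 16.7% of them inside the ORF, against at most 11.7% elsewhere. Counting tags after the ORF alone left the calls of CTT1, TSA2 and PRX1 in fixed against unfixed particles in place.

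The counting rule gave most ends of SOD2 to its neighbour. The ORF of YHR007C-A begins 124 nt past that of SOD2 on the same strand and is 216 nt long. Of the tags in the SOD2 ORF and the 400 nt after it, 78.01% to 100% lay 124 to 200 nt past the ORF, inside the first part of YHR007C-A. With that annotation left out, chosen after seeing these positions, SOD2 had 275.6 and 337.3 CPM in unfixed particles, 319.1 and 345.6 CPM in YPD2, and 281.9 and 137.8 CPM in YPD05. It had 91.1, 99.95 and 110.8 CPM in unsorted fixed particles, 91.9, 113.1 and 94.7 CPM in big colonies, and 29.7 and 155.6 CPM in small ones. The unsorted and big fixed libraries thus all lay below the 6 libraries without ethanol, yet no comparison passed, and fixed against unfixed particles gave -1.61 ± 0.56 (SE, adjusted p = 0.118). A transcript that ends 124 to 200 nt past the SOD2 ORF holds at most the first part of the YHR007C-A ORF, which runs to 339 nt. Where such transcripts begin cannot be told from tags alone.

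CTA1 had many tags at the start of its ORF and not at its end. In YPD2 all 8 and 11 of its tags fell in the first 100 nt of the ORF, and in small replicate 4 this was true of 127 of 181. The cluster continued upstream of the ORF into the 309 nt between it and RKM4, the gene before it on that strand. In big colonies 237 of 269, 28 of 60 and 24 of 50 tags lay after the ORF. These gave 82.2, 7.62 and 8.20 CPM, against 4.13, 1.74 and 2.77 CPM in unsorted fixed particles, a log2 fold change of 3.44 ± 1.57 (SE, adjusted p = 1).

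**Figure D4:**
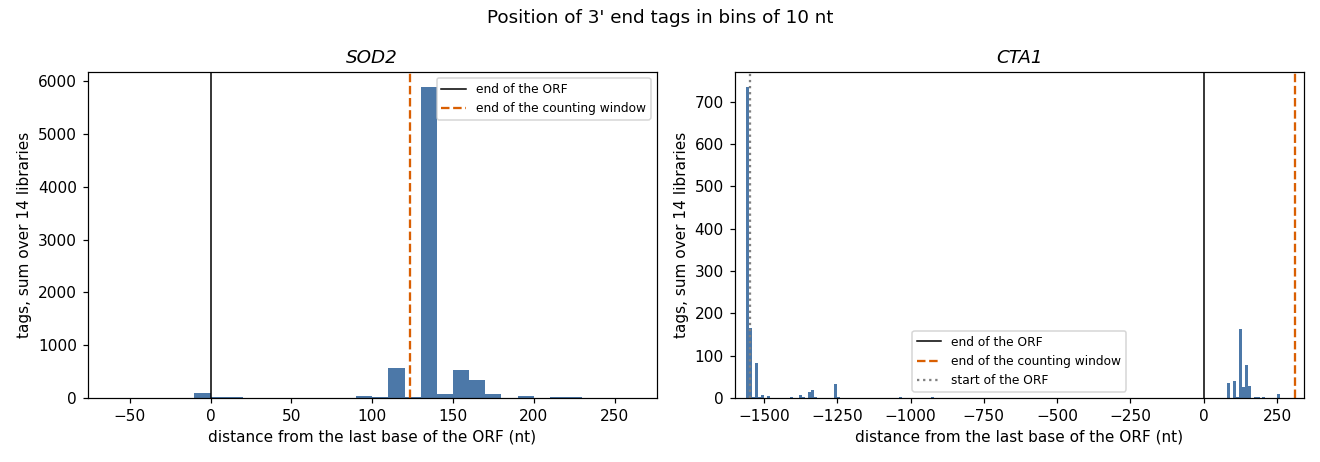
Tags of SOD2 and CTA1 summed over 14 libraries in bins of 10 nt, by distance from the end of the ORF in nt, with negative distances inside the ORF. SOD2 tags peak past the first base of YHR007C-A at 124 nt, and CTA1 tags form 1 cluster at the start of the ORF and another after its end.

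The genes whose pattern was most like a member's were sought by the root mean square difference of centred log2 CPM over 14 libraries, among 3951 genes with a mean of at least 20 CPM. For CTT1, itself with a spread of 2.27 on this log2 scale, these were PNS1 (0.71), IGD1 (0.92), an inhibitor of glycogen debranching, and USV1 (0.93), a zinc finger transcription factor. For TSA2 they were SIP18 (0.71), a desiccation protein, TPS2 (0.78), of trehalose synthesis, and GSY2 (0.78), a glycogen synthase. For PRX1 they were ATG42 (0.67), a vacuolar carboxypeptidase, EMI2 (0.90) and GPD1 (0.92), of glycerol synthesis. Among the members themselves CTT1 and TSA2 differed by 1.02 and CTT1 and PRX1 by 1.37, whereas CTT1 and TSA1 differed by 2.35. For the abundant genes the nearest were LYS12 (0.24) for TSA1, LAP2 (0.28) for SOD1 and NIF3 (0.40) for AHP1. TOR1 (0.38) was nearest to DOT5, TVP15 (0.45) to CCP1, RRD2 (0.50) to SOD2 and RPC25 (1.02) to CTA1. The libraries of a group share their condition and depth, so these are descriptions.

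Enzymes and factors around the 10 genes were described from lists. Of 62 genes of the thioredoxin and glutathione systems, metal supply and regulators, other detoxification and Yap1 targets, 60 were tested. None passed by edgeR in unfixed particles against either batch culture, between batch densities, in fixed particles against dilute batch culture or in big against unsorted colonies. In fixed against unfixed particles 1 rose and 3 fell, so that 4 of 60 passed where 5.84% of all genes did, a share near the background. SRX1, sulfiredoxin, which restores overoxidised peroxiredoxins, fell to 4.46 ± 1.66 CPM (SD, n = 3) from 66.3 ± 23.8 CPM (SD, n = 2), a log2 fold change of -3.91 ± 1.05 (SE, adjusted p = 0.0391).

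CYC7, cytochrome c isoform 2, which serves as electron donor of Ccp1, fell to 3.03 ± 3.47 CPM (SD, n = 3) from 121.8 ± 36.8 CPM (SD, n = 2), or -5.52 ± 1.24 (SE, adjusted p = 0.0153). HSP31, a methylglyoxalase of the DJ-1 family, fell to 39.5 ± 7.27 CPM (SD, n = 3) from 250.5 ± 26.1 CPM (SD, n = 2), or -2.67 ± 0.49 (SE, adjusted p = 0.00555). GRX8, a glutaredoxin, rose to 283.6 ± 81.8 CPM (SD, n = 3) from 32.1 ± 28.4 CPM (SD, n = 2), or 3.14 ± 0.88 (SE, adjusted p = 0.0456), and with tags after the ORF alone it was not called, at 1.44. SRX1 was not called with tags after the ORF alone either, at -3.69. Of these 4, HSP31 kept its call without each library in turn. In small against big colonies HSP31 was the only one of the 60 to pass, at 4.62 ± 2.88 CPM (SD, n = 2) against 63.3 ± 16.1 CPM (SD, n = 3), and it lost its call without any 1 big library.

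The median log2 fold change in fixed against unfixed particles was -0.75 over the 8 thioredoxin system genes, -1.07 over the 16 of the glutathione system, -1.83 over the 11 of other detoxification and -0.35 over the 13 Yap1 targets tested. It was 0.40 over the 16 genes of metal supply and regulators and 0.02 over all genes. In unfixed particles against dilute batch culture the same lists had medians of 0.29, 0.95, 1.34, 0.47 and 0.21, against -0.01 over all genes. These comparisons share the nofix libraries.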

How the data were processed

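Reads were made by the 3′T-fill method from total RNA, with CASAVA 1.8.2 and GSNAP and builds R64 and sacCer3 named in the submitters' processing notes; the settings are not given in the sources used here. The authors deposited 1 table of raw tag counts at 542908 stranded positions in 16 libraries, not normalised. The table's strand is that of the read, so tags were given to genes on the opposite strand (89.4% to 97.1% of tags then fell in a window in each of the 14 libraries). Tags were summed per gene of the RefSeq R64 annotation in the ORF and up to 400 nt past it, before the next gene on the strand. edgeR 4.0.16 (R 4.3.3; TMM, filterByExpr, robust quasi-likelihood fit) tested 14 libraries of 6 groups in 1 fit with 8 residual degrees of freedom over 5527 genes, with Benjamini-Hochberg adjustment at 0.05. The SE was derived from each fold change and its F statistic. CPM use TMM-scaled sizes, and log2 CPM a prior count of 2. DESeq2 1.42.0, RLE factors, no filter, a 200 nt window, other sets of libraries and each library left out were alternatives. The test was tried on simulated counts first. Depending on the comparison, it recovered 8% to 29% of 4-fold changes and 61% to 83% of 16-fold changes. A member that did not pass may therefore still differ. The 10 genes and the pathway lists were chosen with earlier results of these data known. Of the lists, each gene past the threshold with at least 5 CPM was named, up to 4 a list and comparison. For each member the 3 most alike genes were found, of which the first or all 3 are named. AAD6 was matched to no gene of the annotation. Figures were drawn with matplotlib 3.10.9.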

Additional observations from a re-analysis of the deposited data

Results flagged for a closer look

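Tags on the strand opposite to the gene, inside its ORF and outside other genes, were more frequent in unfixed particles than in any batch library for 3 members. Over SOD2 they averaged 76.5 CPM (93.1 and 59.9 CPM in the 2 unfixed libraries), against at most 4.24 CPM in a batch library. Over AHP1 they averaged 24.9 CPM (19.98 and 29.9 CPM), against at most 7.05 CPM, and over CTA1 10.6 CPM (15.9 and 5.36 CPM), against at most 0.703 CPM. Tags in no gene window were more frequent in the unfixed libraries in general. They made up 9.11% and 7.52% of all tags there, against 2.9% to 3.48% in the batch libraries. How many of all genes share such an antisense excess was not counted. These signals lie outside the counts compared in the report and were not tested.

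The 2 small libraries that the submitters excluded still held tags of the 10 genes, above the 3 tags that a count of 0 allows. Replicate 1 had 39, of AHP1 (21), TSA1 (11) and SOD1 (7). Replicate 3 had 7848, of which 4726 were of AHP1, 1530 of SOD1 and 1469 of TSA1, while SOD2, TSA2 and CCP1 had 0.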

How the results depend on the processing

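The count of members called in unfixed particles against dilute batch culture, 2, was 4 without the small colonies, 5 with the 2 groups alone and 0 to 2 with a library left out; against YPD2, 1 became 2 with RLE factors, no filter, the 200 nt window, tags after the ORF or DESeq2, 3 without the small colonies or with the 2 groups alone, and 0 to 1 with a library left out. In fixed against unfixed particles 4 became 6 without the small colonies, 5 with the 2 groups alone, tags after the ORF or DESeq2, 3 with the 200 nt window and 2 to 3 with a library left out, and in small against big colonies 0 became 0 to 5. Where 1 library of a group was left, it was assumed to vary like the other groups. In small against big colonies 2 directions reversed with a library left out: AHP1 ranged from -2.69 (without small replicate 2) to 0.96, and PRX1 from -7.84 (without small replicate 4, adjusted p = 0.00654, fitted against 0 tags and no bound) to 1.25. Among 949 member values under alternatives, 42 uncalled ones changed sign.

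Replicate numbers are shared by groups, but deviations of libraries with the same number correlated at -0.166 to 0.188. Big against unsorted colonies, the only comparison with 3 pairs, did not have each above 0.1. Between groups of 2 libraries both pairs give the same value by construction, so the check is weak there. The numbers were not taken as pairs, and the labels do not say whether more was shared. The replicate block, fitted without the small colonies, gave 4 members against YPD05 and 3 against YPD2, as without the block, and 5 in fixed against unfixed particles, where SOD2 was not called; in small against big colonies, which share 1 number, no paired analysis was possible because fewer than 2 numbers are shared.

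Over all genes, the 107 calls against YPD05 became 677 without the small colonies, 598 with the block, 984 with the 2 groups alone, 403 with DESeq2 and 1 to 28 with a library left out. The 41 against YPD2 became 27 with the 200 nt window, 486, 379, 275 and 269 in the same order, and 1 to 31. The 323 in fixed against unfixed particles became 1093, 845, 835 and 647, and 36 to 190. The 70 in small against big colonies (31 higher, 39 lower; 47 and 30 with RLE factors) became 609 with DESeq2, 0 with small replicates 1 and 3 added, 0 with the 2 groups alone and 0 to 1982 with a library left out. YPD2 against YPD05 went from 0 to 16 with the 2 groups alone and 6 with DESeq2, and fixed particles against YPD05 to 1 with DESeq2. Beyond the fewer libraries of some settings, the cause was not tested. Low counts limit CTA1, SOD2 and PRX1 most, at 0 to 20 tags in several libraries. For SOD2 they also reflect the counting rule, which gave most ends past its ORF to YHR007C-A.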
